A study of Mus musculus with 6 samples.

Results

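Collagens are the main structural proteins of the extracellular matrix, and each chain is encoded by its own gene. The genes described here are all protein-coding mouse genes with a collagen chain symbol (Col, a type number, a and a chain number) in a table of 16289 genes, leaving out Col10a1, the cartilage collagen of growth plates. They number 42, and all 42 passed the filter on low counts. The annotation holds 44 such symbols, of which Col6a4 is not analysed here. They comprise 11 fibrillar chains, 6 basement membrane chains, 5 microfibril chains, 9 fibril-associated (FACIT) chains, 2 multiplexins, 4 transmembrane chains and 5 others.

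The RNA was sequenced from whole tibialis anterior muscle of the shin. All mice were wild-type C57BL/6J males aged 12 weeks, and their muscle had been injected with glycerol, a model of muscle injury in which regeneration is accompanied by fat infiltration. One group of 3 received melatonin after the glycerol (glycerol+melatonin), and one group of 3 received glycerol and a control treatment (glycerol). Muscle was collected 14 days after the injection. How much melatonin was given, and by which route, is not stated in the labels, and no uninjured muscle was analysed here. The tissue label is tibialis anterior, while the text on RNA extraction names longissimus dorsi, a back muscle. A list of 8 genes of muscle fibres was summed in counts scaled to 1000000 per library (CPM). The sums lay between 85733 and 133729 CPM in glycerol+melatonin libraries and between 120398 and 142027 CPM in glycerol libraries. The list does not tell one muscle from another.

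A collagen chain carries long runs of a glycine repeat, and 3 chains wind into a triple helix. Fibrillar collagens pack into the banded fibrils of tendon, fascia and scar, FACIT collagens sit on the surface of those fibrils, type IV collagen forms the sheet of the basement membrane around each muscle fibre and vessel, and type VI collagen forms beaded microfibrils next to it. In injured muscle most of the fibrillar collagen is made by fibroblast-like cells of the interstitium, the fibro-adipogenic progenitors, while vessels and muscle fibres also contribute to the basement membrane.

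Some collagen genes lie head to head with their starts close together, and windows of 2 such pairs are shown because ratios of these chains are given further on. Start regions were taken from RefSeq (assembly GRCm38.p6, 250 bases before to 50 bases after the transcript start); 33 of the 42 genes had an entry. The windows of Col4a1 and Col4a2, which encode the ubiquitous chains of type IV collagen, overlap by 78 bases on chromosome 8, shown in capitals in both. Col4a1 is read from the minus strand (chr8:11312777-11313076) and Col4a2 from the plus strand (chr8:11312555-11312854), each printed 5′ to 3′ on its own strand.
Col4a1: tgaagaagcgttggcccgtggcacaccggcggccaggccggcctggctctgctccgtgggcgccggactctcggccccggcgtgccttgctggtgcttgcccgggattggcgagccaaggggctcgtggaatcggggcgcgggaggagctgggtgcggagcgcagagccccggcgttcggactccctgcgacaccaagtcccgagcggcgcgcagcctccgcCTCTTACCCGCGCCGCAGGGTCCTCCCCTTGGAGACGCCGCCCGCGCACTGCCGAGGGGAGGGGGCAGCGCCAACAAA
Col4a2: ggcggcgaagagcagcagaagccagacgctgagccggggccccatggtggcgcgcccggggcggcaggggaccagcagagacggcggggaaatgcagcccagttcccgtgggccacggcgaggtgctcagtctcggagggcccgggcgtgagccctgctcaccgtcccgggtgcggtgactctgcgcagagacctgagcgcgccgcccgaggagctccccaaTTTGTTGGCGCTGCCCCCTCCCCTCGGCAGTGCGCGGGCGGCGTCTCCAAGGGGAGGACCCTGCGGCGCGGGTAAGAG
The annotated genes themselves overlap by 22 bases, with starts at 11312826 for Col4a1 and 11312805 for Col4a2. A second head-to-head pair, Col4a3 and Col4a4, lies on chromosome 1; the window of Col4a4 (chr1:82586800-82587099, minus strand) is shown, with the 71 bases that separate the annotated genes in capitals.
Col4a4: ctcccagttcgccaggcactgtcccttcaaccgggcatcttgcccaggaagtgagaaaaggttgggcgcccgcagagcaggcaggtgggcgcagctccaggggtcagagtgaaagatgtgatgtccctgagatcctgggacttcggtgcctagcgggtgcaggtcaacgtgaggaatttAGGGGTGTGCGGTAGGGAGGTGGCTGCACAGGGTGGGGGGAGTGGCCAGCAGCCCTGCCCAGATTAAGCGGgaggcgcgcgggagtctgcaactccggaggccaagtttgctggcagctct
Col7a1, which had the highest log2 fold change of the 42, has its window at chr9:108953336-108953635 on the plus strand. The capitals mark one GC box (GGGCGG, or CCGCCC on the other strand), 61 bases before the start.
Col7a1: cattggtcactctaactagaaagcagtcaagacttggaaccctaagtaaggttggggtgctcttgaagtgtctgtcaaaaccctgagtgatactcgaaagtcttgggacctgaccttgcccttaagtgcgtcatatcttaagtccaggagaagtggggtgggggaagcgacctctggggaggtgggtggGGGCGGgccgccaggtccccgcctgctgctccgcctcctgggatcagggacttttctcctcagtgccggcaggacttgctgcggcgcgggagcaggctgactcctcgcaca
A GC box was present in 61.1% of the 36 collagen windows and in 35.7% of all 32851 windows of the same length. CCAAT or ATTGG was present in 33.3% of the collagen windows and 37.4% of all, TATAAA or TTTATA in 11.1% of the collagen windows and 13.6% of all, and TGANTCA in 2.78% of the collagen windows (Col6a1) and 7.81% of all. These are matches of letters and were not tested as binding sites.

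Libraries held between 41204718 and 47945178 counts in the glycerol+melatonin group and between 39310361 and 48879045 in the glycerol group. Levels are given as CPM scaled by TMM factors, which correct each library for its composition, and levels of different genes are compared as CPM per kilobase (kb) of the longest annotated transcript. The TMM factors were 0.967, 1.13 and 1.14 in the glycerol+melatonin libraries and 0.869, 0.888 and 1.04 in the glycerol libraries. With the library totals alone, the median log2 fold change of all 16259 tested genes moved to 0.23, against 0.02 with TMM, so the scaling matters for every difference below. Some collagen genes share exon bases with another row of the table: Col3a1 shares 141 with Gm47302, Col5a1 shares 99 with 2810430I11Rik, Col20a1 shares 79 with BX649560.1, and Col4a1 and Col4a2 share 22. How such reads were assigned is not known. The 3 samples of a group are called biological replicates by the submitters, and p-values measure the spread between them.

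Fibrillar transcripts dominated in both groups. Col3a1, the chain of type III collagen, a thin-fibril collagen that is abundant in healing tissue, had the highest level of all 42 with 574 CPM per kb on average over the 6 libraries. Col1a1 and Col1a2, the 2 chains of type I collagen, the main collagen of tendon and scar, followed with 356 and 333 CPM per kb. Within a library, the ratio of Col1a1 to Col1a2 per base lay between 0.97 and 1.23 in glycerol+melatonin muscle and between 0.939 and 1.27 in glycerol muscle, so the order of these neighbours differed between libraries. Col4a1 (170 CPM per kb) and Col4a2 (145 CPM per kb) came next, then Col6a1 (97.4) and Col6a2 (95.3), whose order also differed between libraries, and Col15a1 (52.3), a multiplexin of basement membrane zones. At the other end, 7 genes had a mean under 1 CPM: Col4a6, Col9a1, Col9a2, Col9a3, Col19a1, Col17a1 and Col25a1. The highest and lowest levels per kb differed 9603-fold.

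**Figure D1:**
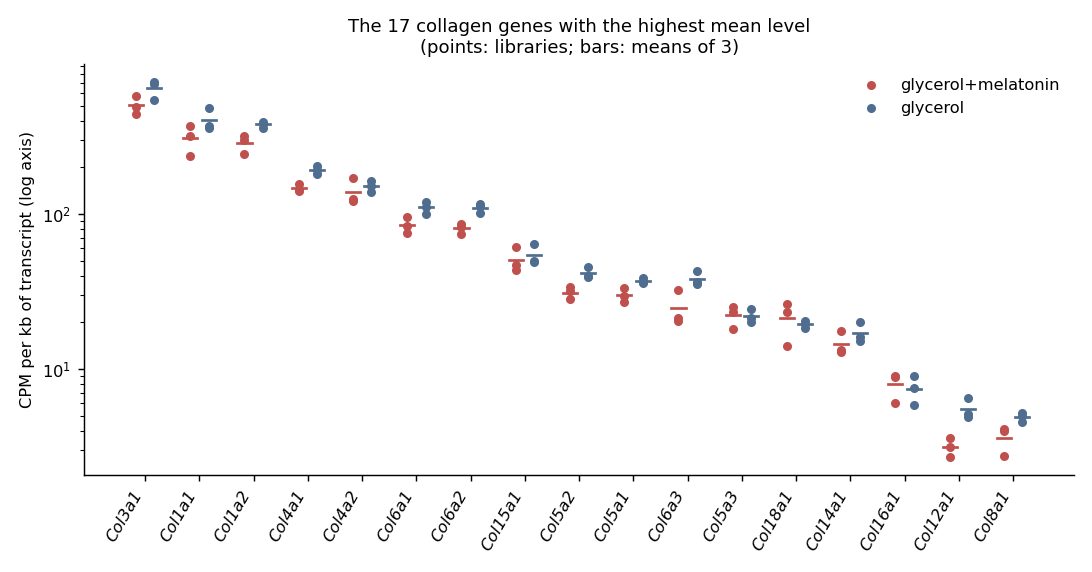
CPM per kb of transcript (log axis) in each library for the 17 collagen genes with the highest mean level; points are libraries and bars the means of 3, with glycerol+melatonin left of glycerol. Col3a1 leads with a mean of 574 CPM per kb, and the 3 glycerol+melatonin points of Col1a2, Col4a1, Col6a1, Col6a2, Col5a1, Col5a2, Col6a3, Col12a1 and Col8a1 lie under the 3 glycerol points.

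Most collagen genes had lower mean levels in glycerol+melatonin muscle, but by small amounts, and no single gene passed the main test. The log2 fold change, glycerol+melatonin over glycerol, was below 0 for 29 of 42 collagen genes, against 48.3% of all genes tested, and its median was −0.36. By edgeR's quasi-likelihood test, 0 of 42 were lower and 0 of 42 were higher at a Benjamini-Hochberg adjusted p under 0.05, where 0.0554% and 0.0185% of all genes passed. The lowest adjusted p among them was 0.117, for Col7a1. At an unadjusted p under 0.05 by edgeR, 9 collagen genes were lower, against 9.39% of all genes, and 1 was higher, against 10.1%. The 9 were Col5a2, Col11a1, Col4a3, Col6a2, Col6a3, Col6a6, Col12a1, Col22a1 and Col8a1, and the 1 was Col7a1. That count of 9 was 3 without glycerol replicate 2 and 5 without glycerol+melatonin replicate 1, and the count of 1 was 2 without either.

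DESeq2, run as an alternative, gave an adjusted p to 38 of the 42. It called 2 lower, Col4a3 and Col12a1, against 2.8% of all genes lower, and 1 higher, Col7a1, against 2.21%. In 15 collagen genes all 3 glycerol+melatonin libraries lay under all 3 glycerol libraries in TMM-scaled CPM, which was true of 12.5% of all genes, and in 1 gene (Col7a1) they lay above, against 13.6%. With library totals alone, the glycerol+melatonin libraries lay wholly under the others in 3 collagen genes (Col4a3, Col6a2 and Col12a1), against 5.97% of all genes, and wholly above in 5 (Col24a1, Col27a1, Col20a1, Col23a1 and Col7a1), against 18.9%. The median collagen log2 fold change was −0.14 on that scale, and 25 of 42 were below 0. Relative to the median of all genes it was −0.37 with TMM and −0.37 with library totals, and 29 of 42 were below the median gene on both scales. A change of scaling moves all genes by nearly the same amount, so these values could hardly differ and are no separate check.

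**Figure D2:**
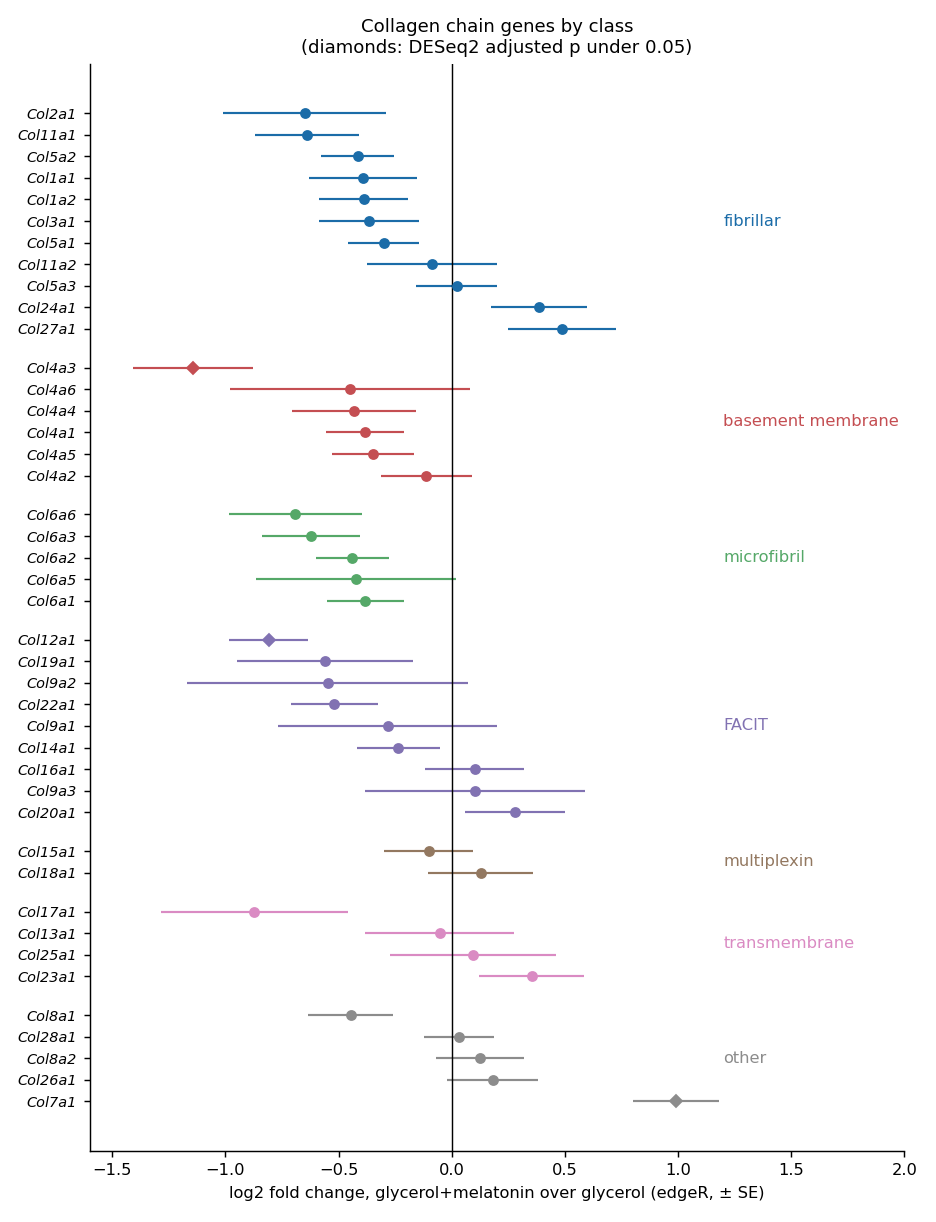
Log2 fold change of each of the 42 collagen genes, glycerol+melatonin over glycerol, by edgeR, with its standard error, grouped by class; diamonds mark the 3 genes with an adjusted p under 0.05 by DESeq2. All 6 basement membrane and all 5 microfibril genes lie left of 0 with TMM scaling (Col4a2 lies right of 0 with library totals alone), and Col7a1 lies farthest right at 0.99.

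Collagen genes are long, with a median longest transcript of 5989 bases against 3118 for all genes tested. After each library was corrected for a smooth trend of counts with transcript length, 26 of 42 lay below 0, against 47.5% of all genes, and the median was −0.21. At an unadjusted p under 0.05 the length-corrected edgeR fit had 2 lower (Col4a3 and Col12a1), against 7.91% of all genes, and 4 higher (Col24a1, Col27a1, Col23a1 and Col7a1), against 9.12%. No RNA quality values were used here, and the part of transcript length in these differences was not tested beyond this correction.

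**Figure D3:**
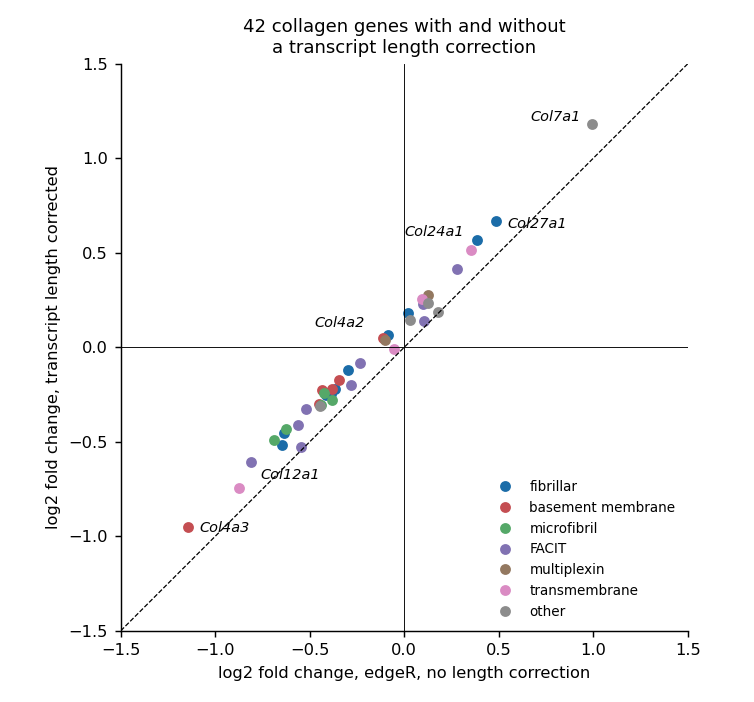
Log2 fold change of the 42 collagen genes without (x axis) and with (y axis) a correction for transcript length, coloured by class; the dashed line marks equal values. Points lie mostly above the line, Col4a2 crosses 0, and Col12a1, Col4a3 and Col7a1 stay farthest from 0 in their directions among the labelled genes.

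As a share of all counts, the 42 genes took 0.890%, 1.25% and 1.23% of the glycerol+melatonin libraries and 1.15%, 1.18% and 1.35% of the glycerol libraries. The groups overlapped, with glycerol+melatonin replicate 1 lowest. In TMM-scaled CPM the sums were 9203, 11100 and 10817 in glycerol+melatonin muscle, against 13193, 13325 and 12976 in glycerol muscle, with no overlap. Whether fewer collagen-making cells or less collagen RNA per cell underlies a lower level cannot be told apart in whole muscle.

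The fibrillar class held 66.5% ± 1.96 of summed collagen CPM per kb in glycerol+melatonin libraries and 67.8% ± 1.13 in glycerol libraries (SD, n = 3 each), and the ranges overlapped. Its sums were 1046, 1316 and 1208 CPM per kb in glycerol+melatonin muscle, against 1512, 1586 and 1513 in glycerol muscle, without overlap in TMM-scaled CPM. Col1a1, Col1a2 and Col3a1 together held 61.4% of the collagen total in glycerol+melatonin and 63.0% in glycerol libraries. Basement membrane chains summed to 268, 266 and 329 CPM per kb in glycerol+melatonin muscle, against 368, 320 and 345 in glycerol muscle, where the ranges overlapped. Microfibril chains summed to 174, 214 and 191 CPM per kb in glycerol+melatonin muscle, against 255, 271 and 260 in glycerol muscle, without overlap in TMM-scaled CPM. Without the TMM factors, the fibrillar and the microfibril sums overlapped between the groups. Of all single genes tested, 12.5% lay wholly lower in TMM-scaled CPM. FACIT chains summed to 26.1, 33.6 and 28.2 CPM per kb in glycerol+melatonin muscle, against 30.1, 35.1 and 38.2 in glycerol muscle, with overlap. Within the collagen total the shares of these classes were close between groups. The microfibril share was 10.8% ± 0.456 in glycerol+melatonin and 11.6% ± 0.261 in glycerol libraries, without overlap. Its ranges overlapped when merged exon length replaced transcript length. The class of other collagens held 0.773% ± 0.044 in glycerol+melatonin and 0.573% ± 0.025 in glycerol libraries, without overlap by either length. Multiplexins held 3.99% ± 0.604 in glycerol+melatonin and 3.24% ± 0.376 in glycerol libraries, with overlap by transcript length but not by merged exon length. Transmembrane chains held 0.113% and 0.0802%, with overlap. These are shares of a TMM-scaled collagen total whose mean was 1787 CPM per kb in glycerol+melatonin and 2266 in glycerol libraries. The class of other collagens itself summed to 11.9 to 15.3 CPM per kb in glycerol+melatonin and 12.7 to 13.5 in glycerol libraries, with overlap. Multiplexins summed to 57.6 to 87.3 CPM per kb in glycerol+melatonin and 67.4 to 83.2 in glycerol libraries, also with overlap.

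**Figure D4:**
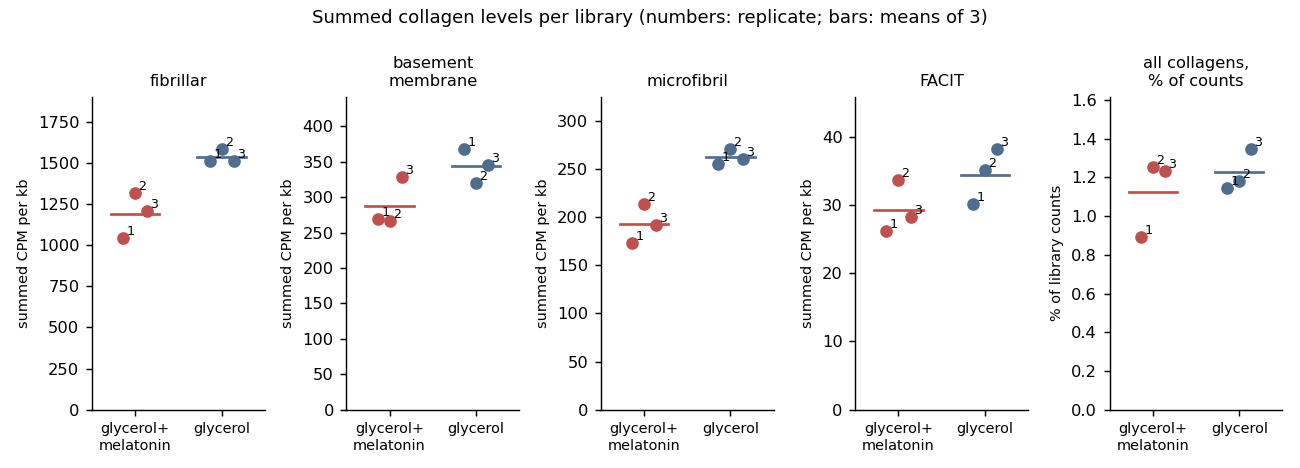
Summed CPM per kb of the fibrillar, basement membrane, microfibril and FACIT collagens, and the percentage of library counts taken by all 42 genes, in each library (points numbered by replicate, bars the means of 3). The TMM-scaled fibrillar and microfibril sums do not overlap between groups. The unscaled share of counts does, at 0.890% to 1.25% in glycerol+melatonin and 1.15% to 1.35% in glycerol libraries.

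Among the 11 fibrillar genes, 8 had a log2 fold change below 0 and the median was −0.37. Col3a1 had 2715, 3220 and 2443 CPM in glycerol+melatonin muscle, against 3021, 3923 and 3846 CPM in glycerol muscle. Glycerol replicate 1 was lower than glycerol+melatonin replicate 2, so the groups overlapped, and the log2 fold change was −0.37 ± 0.22 (SE; edgeR adjusted p = 0.383). Col1a1 had 1396, 1895 and 2194 CPM in glycerol+melatonin muscle, against 2865, 2197 and 2136 CPM in glycerol muscle. The groups overlapped through one pair of libraries, and the log2 fold change was −0.39 ± 0.24 (edgeR adjusted p = 0.389). Col1a2 had 1299, 1711 and 1614 CPM in glycerol+melatonin muscle, against 2027, 2111 and 1920 CPM in glycerol muscle, without overlap (log2 fold change −0.39 ± 0.19, edgeR adjusted p = 0.306). Glycerol+melatonin replicate 1 was the lowest library for both type I chains, and the relation of Col3a1 to Col1a1 varied more between mice than between groups, at 2.07, 1.81 and 1.19 per base in glycerol+melatonin muscle and 1.12, 1.90 and 1.92 in glycerol muscle.

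Type V and type XI chains co-assemble with types I and III and limit fibril width. Col5a1 and Col5a2, the chains of the common type V trimer, had log2 fold changes of −0.30 ± 0.16 and −0.42 ± 0.16, both without overlap, while Col5a3, the chain of a rarer type V form, was at 0.02 ± 0.18. Col11a1, known mainly from cartilage, had 7.74, 7.60 and 11.8 CPM in glycerol+melatonin muscle, against 13.6, 16.8 and 11.8 CPM in glycerol muscle. Its highest glycerol+melatonin library lay just under its lowest glycerol library, and the log2 fold change was −0.64 ± 0.23 (edgeR adjusted p = 0.199). Its partner Col11a2 had 5.96, 11.3 and 14.1 CPM in glycerol+melatonin muscle, against 10.5, 12.0 and 10.9 CPM in glycerol muscle, which overlapped, and its log2 fold change of −0.09 ± 0.29 was 0.16 with library totals and 0.06 after length correction. Col2a1, the main cartilage collagen, had 1.55, 1.85 and 3.28 CPM in glycerol+melatonin muscle, against 4.52, 2.26 and 3.70 CPM in glycerol muscle (log2 fold change −0.65 ± 0.36, edgeR adjusted p = 0.349). Of 6 chondrocyte markers, Sox9 and Acan were in the table and summed to 6.53 to 9.83 CPM in glycerol+melatonin libraries and 6.93 to 10.2 CPM in glycerol libraries; Matn1, Matn3, Hapln1 and Cnmd are not analysed here.

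Of the 3 fibrillar genes above 0, Col5a3 lay near 0, as given above. The other 2, Col24a1 and Col27a1, belong to a separate branch of the family that is best known from bone and cartilage. Col27a1 had 7.51, 10.1 and 13.6 CPM in glycerol+melatonin muscle, against 8.20, 7.67 and 6.39 CPM in glycerol muscle. Of the glycerol+melatonin libraries, replicate 1 alone lay within the glycerol range, and the log2 fold change was 0.49 ± 0.24 (edgeR adjusted p = 0.300). Col24a1 had a log2 fold change of 0.38 ± 0.21, with overlapping groups and an edgeR adjusted p of 0.347. Both reached an unadjusted p of 0.0162 and 0.0164, Col24a1 first, in the length-corrected fit.

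All 6 basement membrane genes had log2 fold changes below 0 with TMM, with a median of −0.41, and Col4a2 alone among them was above 0 with library totals or length correction. The α1 and α2 chains form the trimer of most basement membranes, with 2 α1 for each α2, and their genes make up the divergent pair shown at the start. Col4a1 had 935, 946 and 1040 CPM in glycerol+melatonin muscle, against 1343, 1193 and 1277 CPM in glycerol muscle. Every glycerol+melatonin library was below every glycerol library (log2 fold change −0.38 ± 0.17, edgeR adjusted p = 0.264). Col4a2 had 810, 785 and 1098 CPM in glycerol+melatonin muscle, against 1052, 887 and 971 CPM in glycerol muscle, so that glycerol+melatonin replicate 3 was the highest of all 6. Its log2 fold change of −0.11 ± 0.20 was 0.11 with library totals and 0.05 after length correction, so no direction can be given for Col4a2.

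Col4a3, Col4a4 and Col4a5 encode the chains of the second type IV network, known from the kidney filter, where their loss causes Alport syndrome in humans. Col4a3 (chr1:82586921-82722059, plus strand) had 1.14, 0.812 and 0.851 CPM in glycerol+melatonin muscle, from 50, 44 and 40 counts, against 2.03, 2.33 and 1.84 CPM in glycerol muscle, from 82, 101 and 75 counts. The groups did not overlap, also with library totals alone. The log2 fold change was −1.14 ± 0.27, the lowest of the 42, with an adjusted p of 0.134 by edgeR and 0.0218 by DESeq2, and it ran from −1.31 to −1.05 when each library was left out in turn. Col4a4 had 2.12, 1.49 and 1.30 CPM in glycerol+melatonin muscle, against 2.40, 2.40 and 1.84 CPM in glycerol muscle, with overlap (log2 fold change −0.43 ± 0.27, edgeR adjusted p = 0.404). Col4a5 had 7.01, 6.72 and 6.09 CPM in glycerol+melatonin muscle, against 9.29, 8.87 and 7.06 CPM in glycerol muscle, and its groups just missed each other (log2 fold change −0.35 ± 0.18, edgeR adjusted p = 0.328). Col4a6, the partner of Col4a5 in smooth muscle basement membrane, had a mean under 1 CPM and a log2 fold change of −0.45 ± 0.53. Exons of Col4a3 share 563 bases with a transcript on the other strand, C430014B12Rik, which is not a row of the table, and reads of the strands cannot be told apart without the strand setting of the count.

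Chain ratios within a library do not depend on the scaling between libraries. Of 10 ratios of partner chains, chosen after the levels had been seen, 2 did not overlap between the groups, Col4a1 to Col4a2 and Col4a3 to Col4a4. Among single genes, groups without overlap were common too, at 12.5% lower and 13.6% higher of all genes tested, and no such share was computed for ratios, so the 2 are given as values only. The ratio of Col4a1 to Col4a2 per base was 1.13, 1.17 and 0.923 in glycerol+melatonin muscle, against 1.24, 1.31 and 1.28 in glycerol muscle. The ratio of Col4a3 to Col4a4 was 0.635, 0.642 and 0.775 in glycerol+melatonin muscle, against 0.999, 1.15 and 1.18 in glycerol muscle, and it rests on the low counts given above for Col4a3 and on 93, 81 and 61 counts of Col4a4 in glycerol+melatonin and 97, 104 and 75 in glycerol muscle. In both pairs every glycerol+melatonin library had the lower ratio. The other 8 ratios overlapped, among them Col6a1 to Col6a2, Col5a1 to Col5a2 and Col1a1 to Col1a2. No test was run on these ratios.

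**Figure D5:**
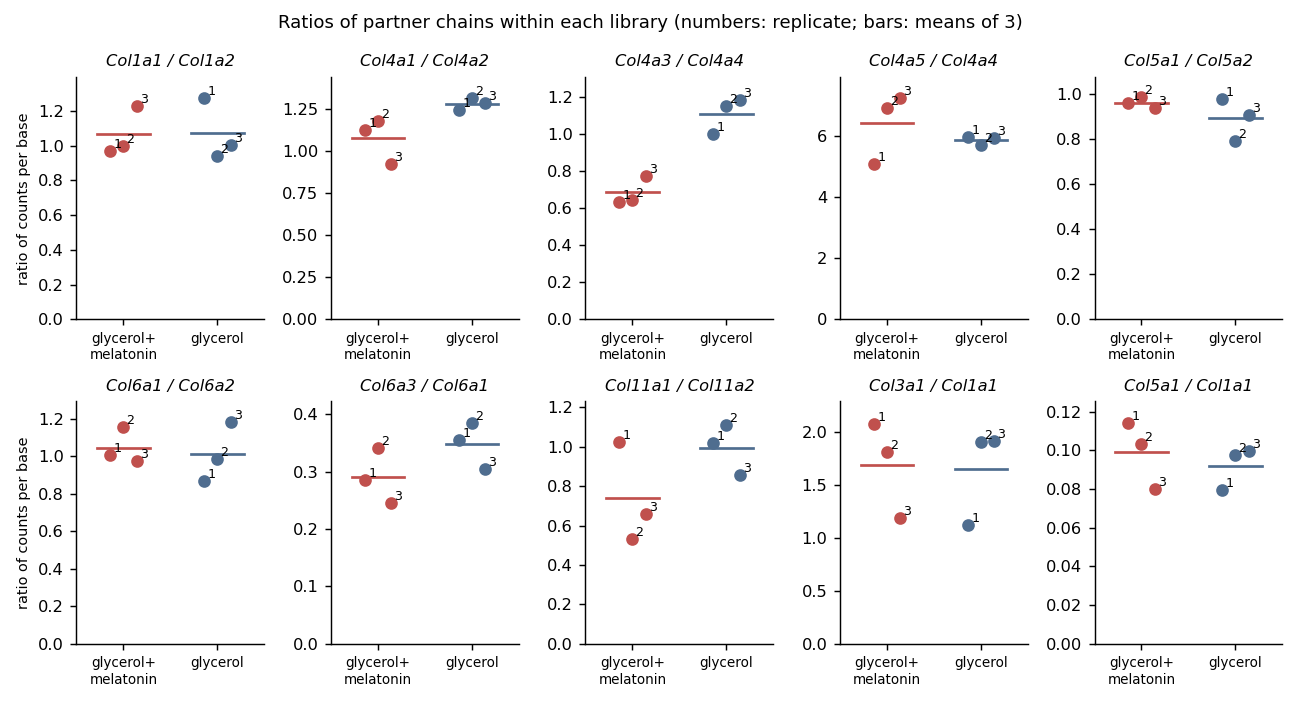
Ratio of counts per base for 10 pairs of partner chains in each library (points numbered by replicate, bars the means of 3, glycerol+melatonin left of glycerol). The groups are apart for Col4a1/Col4a2 (mean 1.07 in glycerol+melatonin, 1.28 in glycerol) and Col4a3/Col4a4 (mean 0.684 in glycerol+melatonin, 1.11 in glycerol), and they overlap in the other 8 panels.

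The 5 microfibril genes were all below 0 with TMM, with library totals and after length correction, and their median with TMM was −0.44. Type VI collagen links the basement membrane to the interstitial matrix, and mutations in its main chains cause muscular dystrophies in humans. Col6a1 had 307, 391 and 343 CPM in glycerol+melatonin muscle, against 411, 455 and 489 CPM in glycerol muscle (log2 fold change −0.38 ± 0.17, edgeR adjusted p = 0.265). Col6a2 had 365, 405 and 421 CPM in glycerol+melatonin muscle, against 566, 554 and 496 CPM in glycerol muscle (log2 fold change −0.44 ± 0.16, edgeR adjusted p = 0.203). Neither overlapped between the groups in TMM-scaled CPM. Col6a3, the long chain that completes the trimer, had 216, 329 and 208 CPM in glycerol+melatonin muscle, against 359, 430 and 368 CPM in glycerol muscle. Glycerol+melatonin replicate 2 came closest to the glycerol libraries without reaching them, and the log2 fold change was −0.62 ± 0.22 (edgeR adjusted p = 0.192). Col6a6, an alternative to Col6a3 that muscle also makes, had 24.8, 25.8 and 11.7 CPM in glycerol+melatonin muscle, against 35.5, 37.8 and 27.3 CPM in glycerol muscle (log2 fold change −0.69 ± 0.29, edgeR adjusted p = 0.249). Replicate 3 was the lowest library in each group. Col6a5, another alternative chain, had 3.17, 3.91 and 0.936 CPM in glycerol+melatonin muscle, against 3.29, 3.52 and 3.97 CPM in glycerol muscle. Its difference rested on glycerol+melatonin replicate 3 (log2 fold change −0.42 ± 0.44, and −0.01 without that library).

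Among the 9 FACIT genes, 6 were below 0, and the median was −0.28. Col12a1 (chr9:79598991-79718831, minus strand) encodes type XII collagen, which coats fibrils in tendon and muscle connective tissue and whose mutations cause a myopathy in humans. It had 31.3, 41.5 and 35.9 CPM in glycerol+melatonin muscle, against 59.3, 75.0 and 56.1 CPM in glycerol muscle. The groups did not overlap, also with library totals, and with TMM glycerol muscle had 1.75 times the level. The log2 fold change was −0.81 ± 0.18, with an adjusted p of 0.132 by edgeR and 0.00728 by DESeq2, and it ran from −0.92 to −0.67 over the 6 fits that left out a library. With library totals it was −0.58. After length correction it was −0.61, with an unadjusted p of 0.00432 by edgeR. Col22a1, found at muscle-tendon junctions, was at −0.52 ± 0.19 without overlap (edgeR adjusted p = 0.206).

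The most abundant FACIT gene, Col14a1, which encodes a fibril-coating collagen related to type XII, had 86.2, 113 and 82.9 CPM in glycerol+melatonin muscle, against 98.3, 104 and 129 CPM in glycerol muscle. These overlapped, and the log2 fold change was −0.24 ± 0.19 (edgeR adjusted p = 0.495). Col16a1, a FACIT of several connective tissues, had 31.3, 47.2 and 46.2 CPM in glycerol+melatonin muscle, against 30.4, 39.0 and 46.8 CPM in glycerol muscle, with a log2 fold change of 0.10 ± 0.22 that went below 0 without glycerol replicate 1 (−0.05) or glycerol+melatonin replicate 2 (−0.001). Col20a1 was the FACIT gene with the highest value, at 5.34, 4.98 and 7.13 CPM in glycerol+melatonin muscle, against 3.98, 5.48 and 4.92 CPM in glycerol muscle (log2 fold change 0.28 ± 0.22, edgeR adjusted p = 0.501). The type IX chains and Col19a1 were under 1 CPM, with log2 fold changes from −0.56 to 0.10 and standard errors of 0.39 to 0.62.

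Outside the fibrillar, basement membrane, microfibril and FACIT classes, 4 of 11 genes were below 0 and the median was 0.09, against 25 of 31 and −0.39 for these 4 classes together. Col7a1 (chr9:108953586-108984875, plus strand) encodes type VII collagen, the anchoring fibril that fixes the epidermal basement membrane to the dermis. It had 25.2, 30.4 and 39.3 CPM in glycerol+melatonin muscle, against 16.0, 16.6 and 15.1 CPM in glycerol muscle. The 3 glycerol libraries were close together and all below the 3 glycerol+melatonin libraries, which were spread wider. The fold was 1.99, with a log2 fold change of 0.99 ± 0.19 and an adjusted p of 0.117 by edgeR and 0.00138 by DESeq2. It ran from 0.81 to 1.13 over the 6 fits that left out a library, and was 1.18 after length correction.

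Among the multiplexins, whose ends release fragments such as endostatin, Col18a1 had 78.2, 130 and 148 CPM in glycerol+melatonin muscle, against 109, 114 and 103 CPM in glycerol muscle. Its glycerol+melatonin libraries lay on both sides of the glycerol range, and the log2 fold change of 0.13 ± 0.23 was −0.06 without glycerol+melatonin replicate 3. Col15a1 was at −0.10 ± 0.20, and at 0.13 with library totals. Col17a1, a hemidesmosome collagen of skin, had 0.411, 0.535 and 0.702 CPM in glycerol+melatonin muscle, against 0.593, 0.967 and 1.47 CPM in glycerol muscle (log2 fold change −0.87 ± 0.41, edgeR adjusted p = 0.286), on 18 to 33 counts per glycerol+melatonin library and 24 to 60 per glycerol library. Col8a1, a short-chain collagen of vessels, was at −0.45 ± 0.19 without overlap, while its partner Col8a2 was at 0.13 ± 0.19. The other 5 genes, Col13a1, Col23a1, Col25a1, Col26a1 and Col28a1, had log2 fold changes between −0.05 and 0.35, all with overlapping groups.

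The genes that make, process and bind collagen were read from lists, with counts below 0 and medians on the TMM scale, and none passed edgeR's adjusted p. Counts at an unadjusted p under 0.05 in these lists stand against 9.39% lower and 10.1% higher of all genes tested. Of 21 modifying enzymes and chaperones of the endoplasmic reticulum, 9 were below 0, the median was 0.05, and 2 were lower and 1 higher at an unadjusted p under 0.05, about the share of all genes. Mia3, which helps export bulky procollagen, was at −0.40 ± 0.16, and Kdelr2, a receptor that returns chaperones to the endoplasmic reticulum, at 0.33 ± 0.14. Of 13 genes for procollagen processing and crosslinking, 9 were below 0, with a median of −0.32, and 5 were lower and 0 higher at an unadjusted p under 0.05. The crosslinking enzymes Loxl2 and Loxl4 were at −0.74 ± 0.16 and −1.40 ± 0.34, with adjusted p of 0.132 and 0.138 by edgeR and 0.00886 and 0.0147 by DESeq2. Tll2 is not analysed here.

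Partners in the fibril and microfibril had a median of −0.40 over 13 genes, of which 12 were below 0 and 5 were lower at an unadjusted p under 0.05. Fbn1, the main protein of elastic microfibrils, had 79.9, 87.1 and 76.1 CPM in glycerol+melatonin muscle, against 150, 134 and 136 CPM in glycerol muscle. The groups were far apart for the spread within them, and the log2 fold change was −0.79 ± 0.14 (adjusted p = 0.111 by edgeR and 0.000534 by DESeq2). Dcn, a proteoglycan that binds collagen fibrils, was at −0.81 ± 0.21. Of 11 other basement membrane genes, 8 were below 0, with a median of −0.15 (6 of 11 and −0.02 after length correction). At an unadjusted p under 0.05 by edgeR, 2 were lower and 1, Agrn, was higher. Nid1, a linker of the laminin and type IV networks, was at −0.75 ± 0.18, and Lama2, the laminin chain of muscle fibres, at −0.87 ± 0.22.

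Of 10 collagen receptors, 7 were below 0, with a median of −0.12 (3 of 10 and 0.02 after length correction), and 0 were lower or higher at an unadjusted p under 0.05. Their summed level was 467 to 510 CPM in glycerol+melatonin libraries and 527 to 566 CPM in glycerol libraries, without overlap in TMM-scaled CPM. Without the TMM factors these sums overlapped. Itgb1 alone had 237 to 258 CPM in glycerol+melatonin libraries and 290 to 312 CPM in glycerol libraries. The integrin chains Itga2, with 0 to 27 counts per library and none in glycerol+melatonin replicate 2, and Itgb1 were at −1.65 ± 0.81 and −0.28 ± 0.15. Gp6 is not analysed here. Of 7 collagen-degrading proteases, 4 were below 0, with a median of −0.21. Mmp2, a gelatinase, was at −0.59 ± 0.21, and Mmp8, a neutrophil collagenase, at 0.97 ± 0.61 with overlapping groups.

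Markers of the cells that could make these collagens were set beside them. The 11 markers of fibro-adipogenic progenitors summed to between 895 and 1170 CPM in glycerol+melatonin libraries and between 992 and 1518 CPM in glycerol libraries. The groups overlapped in the sum. Pdgfra, the defining receptor of these cells, was picked after its values were seen. It had 33.3, 35.7 and 25.0 CPM in glycerol+melatonin muscle, against 40.6, 66.5 and 47.1 CPM in glycerol muscle. Of the 11, 5 were below 0 and 6 above, with a median log2 fold change of 0.01 (8 below 0 and −0.16 after length correction). At an unadjusted p under 0.05 by edgeR, 4 were lower and 0 higher, against 9.39% and 10.1% of all genes. Osr1, a transcription factor of the same cells, was at −0.65 ± 0.16 (adjusted p = 0.141 by edgeR and 0.0289 by DESeq2), and Dpp4 at −0.79 ± 0.24. The markers named here are all among the 5 below 0 without length correction, and the 6 above 0 in that fit reached at most 0.19.

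Sums of other lists overlapped between the groups. Tenocyte markers summed to 50.4 to 92.1 CPM in glycerol+melatonin libraries and 79.7 to 93.7 CPM in glycerol libraries, and Schwann cell markers to 43.0 to 67.6 CPM in glycerol+melatonin and 61.0 to 72.1 CPM in glycerol libraries. Endothelial markers summed to 974 to 1494 CPM in glycerol+melatonin and 956 to 1145 CPM in glycerol libraries, and smooth muscle and pericyte markers to 1176 to 1468 CPM in glycerol+melatonin and 1353 to 1375 CPM in glycerol libraries. Macrophage markers summed to 261 to 356 CPM in glycerol+melatonin and 267 to 366 CPM in glycerol libraries, and markers of muscle stem cells and myoblasts to 142 to 242 CPM in glycerol+melatonin and 91.5 to 171 CPM in glycerol libraries. Fat cell markers summed to 43.4 to 148 CPM in glycerol+melatonin and 41.1 to 304 CPM in glycerol libraries, where glycerol replicate 3 was the highest. Of these markers, the Schwann cell gene Pmp2 was at 0 counts in a library, and Lep is not analysed here. The markers with the largest F are named. Of 7 endothelial markers, 3 were below 0, with a median of 0.06, and Egfl7 and Esam were at 0.75 ± 0.22 and 0.64 ± 0.21. Of 7 macrophage markers, 5 were below 0, with a median of −0.30, and Cd163 and Mrc1 were at −0.84 ± 0.24 and −0.37 ± 0.18. Of 7 smooth muscle and pericyte markers, 5 were below 0, with a median of −0.08, and Abcc9 and Kcnj8 were at −0.56 ± 0.19 and −0.39 ± 0.21. After length correction, 2 of the endothelial, 7 of the macrophage and 3 of the smooth muscle and pericyte markers were below 0. Their medians were then 0.13, −0.24 and 0.05. By DESeq2, Egfl7 had an adjusted p of 0.0487 and Cd163 one of 0.0448.

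Of 5 tenocyte markers, 3 were below 0, with Kera at −0.90 ± 0.41 and Scx at 0.70 ± 0.32. Of 7 Schwann cell markers, 4 were below 0, with Mbp at −0.65 ± 0.27. All 5 fat cell markers were below 0 with TMM (Retn was at 0.053 with library totals), with wide errors, as for Cidec at −0.90 ± 0.81 and Adipoq at −0.65 ± 0.68. Of 8 muscle fibre genes, 5 were below 0, with Myh2 at 0.74 ± 0.28 and Myh4 at −0.58 ± 0.31, and of 6 markers of muscle stem cells and myoblasts, 1 was below 0, with Myog at 0.64 ± 0.22 and Myh3 at 0.83 ± 0.37. The chondrocyte genes Sox9 and Acan were at −0.11 ± 0.27 and 0.06 ± 0.32. None of these passed edgeR's adjusted p. The part of these cell types in the collagen values was not tested.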

How the data were processed

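The 6 RNA-seq libraries were deposited by the authors as 1 table of raw read counts per gene with mouse Ensembl identifiers, and each column was matched to its sample by the treatment code and replicate number in its name. The submitters' processing notes name HISAT2 2.0, StringTie 1.3.3b, bedtools 2.26.0, Trimmomatic 0.36, FastQC 0.11.2 and DESeq2 1.12.4, with the build mm10. The counting tool, annotation, strand setting and treatment of multiply mapped reads were not given in the sources used here. No gene had a total under 28 counts, and 16203 of 16289 genes had a count in every library.

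Symbols (16260 genes), biotypes and lengths came from GENCODE M21 on GRCm38. The main test was edgeR 4.0.16 (R 4.3.3; quasi-likelihood, TMM factors, filterByExpr, 16259 genes, all 6 libraries, no covariate), with p-values adjusted by Benjamini-Hochberg over all of them; a standard error is the log2 fold change divided by the square root of F. Alternatives were DESeq2 1.42.0, limma-voom (limma 3.58.1), other scalings and filters, a spline of 4 degrees of freedom on transcript length, a replicate block and leaving out each library. The edgeR fit was tested on simulated data. Pairs of replicates gave a chi-square of 65.9 to 181 per degree of freedom, far above sampling noise. Chain ratios are counts divided by longest transcript length.

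Collagen genes and lists were chosen with earlier results of these data known. Values in every library are given for members that passed the adjusted p, the 2 most abundant of each of the 4 main classes, those with the lowest and highest log2 fold change at 1 CPM or more, their partner chains, and the largest F of each other class; from other lists, the 2 genes with the largest F are named with their log2 fold change, except 1 that is not reported here. Pdgfra was added, and Fbn1 given per library, after their values were seen.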

Additional observations from a re-analysis of the deposited data

How the results depend on the processing

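At an adjusted p under 0.05, DESeq2 called 2 collagen genes lower and 1 higher, against 0 and 0 by edgeR. The 9 lower and 1 higher at an unadjusted p under 0.05 were 2 and 4 with library size alone, and 2 and 4 with the transcript length correction; leaving out 1 library gave 3 to 9 lower and 1 to 2 higher. With library size alone the medians were −0.15 for fibrillar, −0.20 for basement membrane and −0.11 for FACIT collagens, on a scale whose median gene was at 0.23. The length correction gave −0.22 for basement membrane collagens. Without one library, medians ran from −0.81 (without glycerol+melatonin replicate 2) to −0.40 for microfibril, from −0.47 (without glycerol replicate 1) to −0.10 (without glycerol replicate 3) for FACIT, and from −0.42 to −0.23 (without glycerol+melatonin replicate 1) for fibrillar collagens. Merged exon length gave a fibrillar share of 59.8% in glycerol+melatonin libraries, against 66.5%. Of 359 values of the 24 named collagen genes under other settings, 348 kept direction and side of the threshold, 3 passed it by DESeq2 alone, and 8 changed sign: Col11a2 (0.16 with library size alone, 0.064 length-corrected, 0.19 without glycerol+melatonin replicate 1), Col4a2 (0.11 and 0.050 with the first and second of these), Col16a1 (−0.046 without glycerol replicate 1, −0.0011 without glycerol+melatonin replicate 2, up to 0.27 without another library) and Col18a1 (−0.056 without glycerol+melatonin replicate 3, up to 0.36). The causes were not tested.

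Same-numbered libraries of the groups did not deviate together (correlations −0.0101, −0.0107 and −0.0492). Those of unlike number ran from −0.1298 to 0.1308. No sign of pairing was seen, but with 3 libraries per group these values cannot decide whether the numbers pair samples. A fit with the replicate block had 0 collagen genes past the adjusted p, and 9 lower and 1 higher at an unadjusted p under 0.05; its medians were −0.36, −0.42, −0.60 and −0.24 for fibrillar, basement membrane, microfibril and FACIT collagens. Counts under about 100 per library limit the precision for Col4a3, Col4a4, Col4a6, Col9a1, Col9a2, Col9a3, Col17a1, Col19a1 and Col25a1, among others.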

Other observations

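Neighbouring collagen genes differed widely in how close their levels were. Col3a1 and Col5a2 lie 24614 bases apart on chromosome 1, and Col3a1 had 17.4, 17.2 and 13.9 times the counts per base of Col5a2 in glycerol+melatonin muscle, against 13.8, 15.4 and 17.4 times in glycerol muscle. Their log2 fold changes were −0.37 and −0.42. Col6a1 and Col6a2 lie 85161 bases apart on chromosome 10, read from the same strand, and were at nearly equal levels, with ratios of 1.01, 1.15 and 0.976 in glycerol+melatonin muscle, against 0.871, 0.984 and 1.18 in glycerol muscle. Both neighbours had overlapping ratios.

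The ratio of the third head-to-head type IV pair overlapped between the groups. Col4a5 and Col4a6 lie 1308 bases apart on chromosome X, and Col4a5 had 31.2, 37.0 and 10.4 times the counts per base of Col4a6 in glycerol+melatonin muscle, against 23.9, 24.5 and 11.7 times in glycerol muscle. Replicate 3 was lowest in each group, and the ranges overlapped. Col9a1 exceeded its low neighbour Col19a1, 9205 bases away on chromosome 1, in every library but glycerol replicate 1, where the ratio was 0.760. These pairs were chosen after the levels had been seen and were not tested.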
